A study of Mus musculus with 11 samples.

Results

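Genes that answer WNT signalling were followed in mouse naive extra-embryonic endoderm (nEnd), a line of stem cells used as a model of the blastocyst's primitive endoderm. The 10 genes were taken by name: Axin2, Lef1, Tcf7, Tcf7l1, Sp5, Dkk1, Nkd1, Cdx1, Lgr5 and T. They are 10 of the 48952 genes of the bulk RNA-seq table and 10 of the 32285 genes of the single-cell matrices. The bulk data held 9 libraries of the OCT4-mCherry nEnd line, which carries a fluorescent OCT4 reporter and received no treatment. Its cells were sorted for the reporter and for the endoderm surface receptor PDGFRA into Pdgfra+ cells (receptor only), DP cells (both) and Oct4+ cells (reporter only), with 3 libraries each, numbered 1 to 3. The single-cell data held 2 libraries of Oct4-LOF nEnd of the line EPUc, in which 4-hydroxytamoxifen (4OHT) deletes both copies of Oct4 (gene symbol Pou5f1). PDGFRA-positive cells of that line were sorted and grown without (minus 4OHT) or with the drug (plus 4OHT), with 1 library per condition. By the study's account the drug was present only in the first part of the culture, which then went on in the normal medium. All these cultures grew on mouse embryonic fibroblast feeders in a defined medium that holds Activin A, LIF and the GSK3 inhibitor CHIR99021. No library lacked the inhibitor, so the data compare cell populations that all received it and cannot show the response to the inhibitor itself. Each line is a single culture model, and the labels do not say whether the 3 libraries of a sorted population came from separate cultures, so that p-values measure only the spread between these libraries.

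In the WNT pathway the kinase GSK3, held in a destruction complex with APC and AXIN proteins, marks beta-catenin for degradation. CHIR99021 blocks GSK3, beta-catenin then accumulates, and it binds TCF/LEF factors on DNA to switch their target genes from repression to activation. Many targets feed back on the pathway, and in naive embryonic stem cells the inhibitor is known to relieve repression by TCF7L1 at pluripotency genes such as Esrrb and Nanog.

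The DNA that TCF/LEF factors read was looked for in the promoters of the members, because these genes are grouped by that response. Windows of 300 bases around annotated starts (RefSeq, GRCm38.p6) were found for 8 of the 10 members, Cdx1 and Lgr5 being without one, and were searched on both strands for the TCF/LEF core. Its 4 forms were CTTTGAA (held by Dkk1 and T), CTTTGAT (held by Sp5), CTTTGTA (held by Lef1) and CTTTGTT (held by Sp5 and Dkk1), so that 4 of 8 members had a core. Of all 32851 promoter windows 16.9% held it, and of the 27025 genes with a window 18.9% did. Upstream sequences of 250 bases are shown for the 3 members with a core in their single window and for Axin2, which had none. They are written 5′ to 3′ on the strand of the gene and end at the base before the annotated start, and capitals mark the core.
Sp5, chr2:70474673-70474922, plus strand: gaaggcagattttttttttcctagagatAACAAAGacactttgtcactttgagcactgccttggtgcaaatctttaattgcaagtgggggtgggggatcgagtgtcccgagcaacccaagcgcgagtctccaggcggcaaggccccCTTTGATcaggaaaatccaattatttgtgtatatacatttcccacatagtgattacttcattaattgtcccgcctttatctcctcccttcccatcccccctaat
Dkk1, chr19:30549497-30549746, minus strand: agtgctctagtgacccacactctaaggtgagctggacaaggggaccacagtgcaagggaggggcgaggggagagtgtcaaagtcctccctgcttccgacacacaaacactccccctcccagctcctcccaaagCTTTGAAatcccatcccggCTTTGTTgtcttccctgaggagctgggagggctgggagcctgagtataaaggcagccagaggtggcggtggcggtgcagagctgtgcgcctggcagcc
T, chr17:8434173-8434422, plus strand: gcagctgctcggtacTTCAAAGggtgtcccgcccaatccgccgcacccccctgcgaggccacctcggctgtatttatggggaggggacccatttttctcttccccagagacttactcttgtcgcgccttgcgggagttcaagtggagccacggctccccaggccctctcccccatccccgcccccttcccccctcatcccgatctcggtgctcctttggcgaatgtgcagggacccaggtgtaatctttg
Axin2, chr11:108920099-108920348, plus strand: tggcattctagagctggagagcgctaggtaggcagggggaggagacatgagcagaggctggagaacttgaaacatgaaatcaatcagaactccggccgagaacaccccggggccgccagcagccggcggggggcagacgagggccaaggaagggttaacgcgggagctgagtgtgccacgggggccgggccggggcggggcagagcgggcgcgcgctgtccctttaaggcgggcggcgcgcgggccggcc
The Sp5 window held 2 cores, at 222 and 104 bases before the start, and the Dkk1 window also held 2, at 117 and 98 bases before it. The T window held 1 at 235 bases before the start. For Lef1, 1 of 4 annotated windows held a core. In GENCODE M21 (GRCm38) Lef1 lies at chr3:131110471-131224356 on the plus strand, Tcf7 at chr11:52252371-52283014 and Tcf7l1 at chr6:72626378-72789254 on the minus strand, Nkd1 at chr8:88521354-88594884 on the plus strand and Lgr5 at chr10:115450311-115587780 on the minus strand. A match describes letters in a window, and no match says only that these letters are not there.

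Markers of each sorted population stood as its label states. Pou5f1, the OCT4 gene, averaged 17.5 ± 9.0 CPM (reads of a gene scaled to library size, ± SD, n = 3) in Pdgfra+, 229 ± 90.3 in DP and 981 ± 142 in Oct4+, and Pdgfra averaged 729 ± 219, 590 ± 153 and 7.43 ± 4.07. Library totals ran from 8019631 to 11642571 reads. The summed level of 11 epiblast markers was 176 to 263 CPM in Pdgfra+, 676 to 1069 in DP and 3956 to 5324 in Oct4+, and none of these markers was at 0 in any library. The summed level of 13 endoderm markers was 51889 to 69382 CPM in Pdgfra+, 36813 to 52321 in DP and 275 to 704 in Oct4+. Markers of feeder fibroblasts summed to 4.08 to 15.8 CPM in Pdgfra+ and DP and to 153, 24.4 and 12.2 in Oct4+ replicates 1 to 3, with 6 or fewer of the 10 at 0 in any library. Markers of 2-cell-like cells summed to 291, 666 and 1098 CPM in these 3 Oct4+ libraries and to at most 15.9 CPM elsewhere. The part of these differences in the results below was not tested.

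Most members were at their highest in the Oct4+ population, the secreted inhibitor Dkk1 was highest in DP, and Tcf7l1 varied least. Of the 10 members, 8 had enough reads to be tested, and Lgr5 and T did not. In Oct4+ against Pdgfra+, 6 of the 8 were higher (Axin2, Lef1, Tcf7, Sp5, Nkd1 and Cdx1), Dkk1 was lower and Tcf7l1 did not pass, where passing means an adjusted p below 0.05 in edgeR's quasi-likelihood test. This comparison called 63.2% of all 14185 genes tested, 31.8% higher and 31.5% lower, so that 7 of 8 stands against a background in which most genes moved. In DP against Pdgfra+, 2 of the 8 passed, Axin2 and Dkk1, both higher in DP, against 6.87% of all genes and 4.62% in that direction. In DP against Oct4+, 7 of the 8 passed, of which 6 were lower in DP and Dkk1 was higher, against 56.2% of all genes, 28.3% higher and 27.9% lower. The libraries of the 2 populations did not overlap for 8 of the 8 members in Oct4+ against Pdgfra+ (69.3% of all genes), 8 in DP against Oct4+ (62.6%) and 3 in DP against Pdgfra+ (34.2%). The median log2 fold change of the 8 members was 2.93 in Oct4+ against Pdgfra+, 0.90 in DP against Pdgfra+ and -1.54 in DP against Oct4+, while that of all genes was 0.01, 0.02 and -0.04. The 3 comparisons share libraries, so that their lists are not independent, and in bulk libraries fewer cells of a type and less RNA per cell cannot be told apart.

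**Figure D1:**
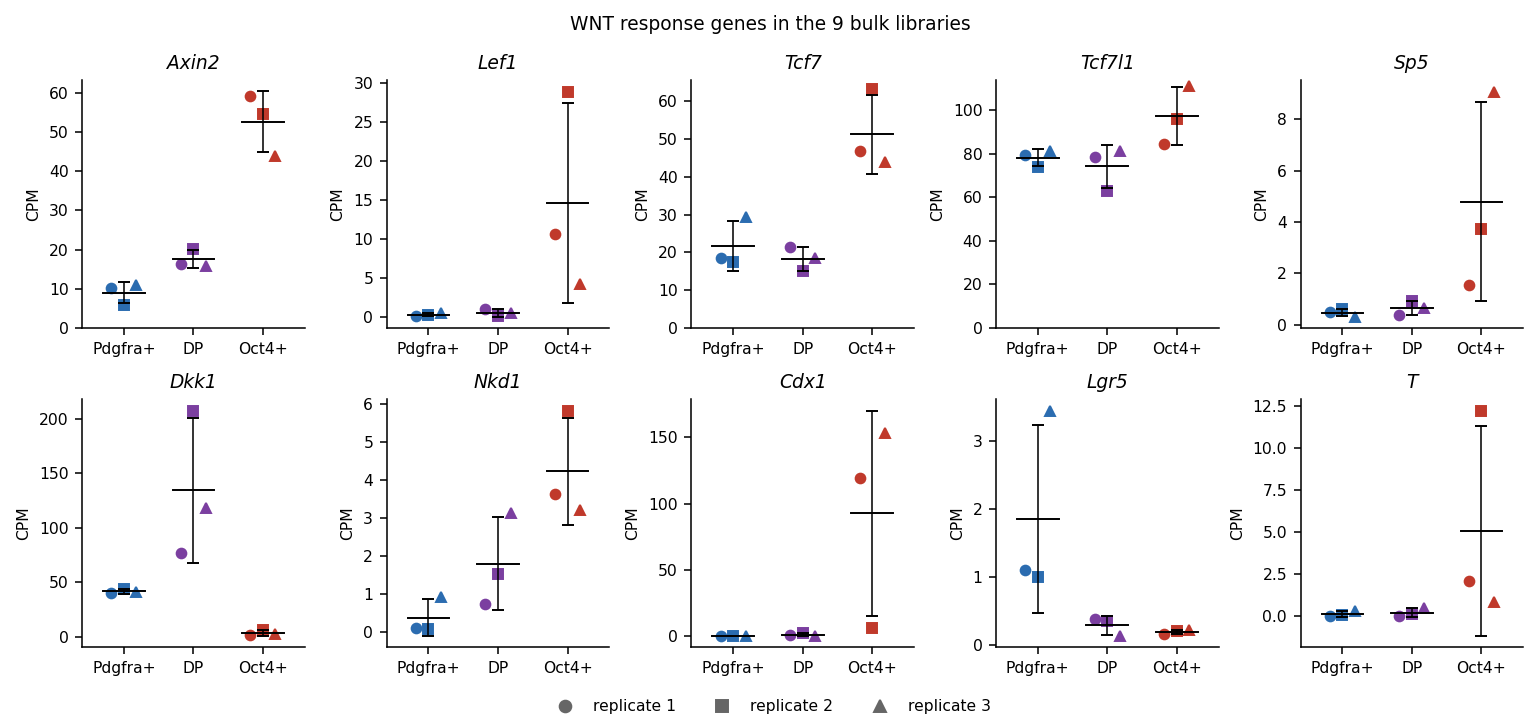
Level of each member in the 9 bulk libraries, in CPM on a linear axis of its own, by sorted population, where symbols are replicates, long bars the mean and error bars the SD of 3 libraries. Axin2 and Tcf7 in all Oct4+ libraries lie above every other library, Dkk1 is highest in DP, and Cdx1 in Oct4+ replicate 2 lies at 5.62 CPM beside 119 and 154 CPM in the other Oct4+ libraries.

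Axin2 encodes a scaffold of the destruction complex that WNT signalling induces against itself, and it is the most widely used readout of the pathway. It was read at 10.1, 5.88 and 10.96 CPM in Pdgfra+ replicates 1 to 3. In DP it was read at 16.5, 20.2 and 15.9 CPM and in Oct4+ at 59.3, 54.7 and 44.0 CPM. The 3 populations did not overlap and stood in the order Pdgfra+, DP, Oct4+. Axin2 rose by 2.55 ± 0.25 (log2 fold change ± SE, edgeR, adjusted p = 2.12e-05) in Oct4+ against Pdgfra+ and was 1.59 log2 units lower in DP than in Oct4+ (adjusted p = 0.000381). In DP against Pdgfra+ the difference was 0.97 ± 0.25 (adjusted p = 0.0472), close to the threshold. The replicate numbers pair DP with Pdgfra+, and with them as a block the adjusted p of Axin2 was 0.0592 over all 9 libraries and 0.0507 over the 6 compared, so that the call was lost. It was also lost without each DP or Pdgfra+ library, at adjusted p from 0.0563 to 0.156, and without Oct4+ replicate 1 or 2 (0.0598 and 0.0601), with the fold change between 0.73 and 1.14 in every case. Epiblast markers moved with it, since 10 of the 11 were higher in DP than in Pdgfra+ by the same test, beside 4.62% of all genes. The part of these markers in the Axin2 difference was not tested.

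Nkd1, a feedback inhibitor that binds the Dishevelled proteins, was rare. It was read at 0.122, 0.0996 and 0.939 CPM in Pdgfra+, at 0.748, 1.53 and 3.14 CPM in DP and at 3.64, 5.82 and 3.21 CPM in Oct4+. All Oct4+ libraries lay above all others, while DP and Pdgfra+ overlapped. The rise in Oct4+ against Pdgfra+ was 3.38 ± 0.77 (adjusted p = 0.0033, edgeR). DP did not differ from either neighbour beyond the threshold, with 2.16 ± 0.80 against Pdgfra+ (adjusted p = 0.129) and -1.23 ± 0.66 against Oct4+ (adjusted p = 0.139).

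Dkk1 is a secreted protein that blocks the WNT co-receptors LRP5 and LRP6. It was the only member tested that was lower in Oct4+ than in the PDGFRA-positive populations. Its levels were 39.9, 44.3 and 41.3 CPM in Pdgfra+, 77.0, 207 and 119 CPM in DP and 1.55, 6.41 and 2.66 CPM in Oct4+. The populations did not overlap, the Pdgfra+ libraries lay close together, and DP replicate 2 stood highest. Dkk1 fell by 3.58 ± 0.49 (log2, adjusted p = 0.000154, edgeR) in Oct4+ against Pdgfra+, and was 5.26 ± 0.52 log2 units higher in DP than in Oct4+ (adjusted p = 2.77e-05). DP exceeded Pdgfra+ by 1.68 ± 0.42 (adjusted p = 0.0446). With the replicate block this call held, at 1.53 and adjusted p = 0.026 over 9 libraries. It was lost when any 1 of Pdgfra+ replicates 1 to 3 or DP replicates 2 and 3 was left out (adjusted p from 0.104 to 0.161), and without DP replicate 2 the fold change was 1.22.

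The TCF/LEF factors bind the core shown above. LEF1 and TCF7 are mostly activators in response to beta-catenin, and TCF7L1 is mostly a repressor that beta-catenin relieves. Lef1 was rare in Pdgfra+ (0.122, 0.299 and 0.522 CPM) and in DP (1.12, 0.118 and 0.523 CPM). In Oct4+ it was read at 10.6, 28.9 and 4.32 CPM, so that all Oct4+ libraries lay above the rest but spread widely among themselves. Its log2 fold change in Oct4+ against Pdgfra+ was 5.45 ± 0.89 (adjusted p = 0.000453), and in DP against Pdgfra+ 0.84 ± 1.05 (adjusted p = 0.65).

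Tcf7 was read at 18.6, 17.3 and 29.3 CPM in Pdgfra+, 21.3, 14.99 and 18.4 CPM in DP and 46.8, 63.1 and 43.8 CPM in Oct4+. Pdgfra+ and DP overlapped and Oct4+ lay above both. Tcf7 was 1.24 ± 0.25 log2 units higher in Oct4+ than in Pdgfra+ (adjusted p = 0.00151, edgeR) and 1.49 lower in DP than in Oct4+ (adjusted p = 0.00068). The difference between DP and Pdgfra+ was -0.25 ± 0.25 (adjusted p = 0.553).

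Tcf7l1 was present in every library at a narrow range of levels. Its values were 79.5, 73.9 and 81.4 CPM in Pdgfra+, 78.5, 62.8 and 81.4 CPM in DP and 84.6, 96.2 and 111 CPM in Oct4+. The Oct4+ libraries lay just above all others. The difference was 0.32 ± 0.15 log2 units in Oct4+ against Pdgfra+ (adjusted p = 0.0853, edgeR). It passed in 3 alternative settings, among them DESeq2 (adjusted p = 0.0275) and RLE scaling (0.0371). DP was 0.39 ± 0.15 log2 units lower than Oct4+ (adjusted p = 0.0443), a call lost in the 6 libraries alone (0.0987), without a filter on low counts (0.152) and without any of 8 of the 9 libraries, the exception being Oct4+ replicate 1.

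Sp5, a zinc finger factor that is a direct beta-catenin target and represses other targets, was read below 1 CPM in every Pdgfra+ and DP library. In Oct4+ it was read at 1.55, 3.75 and 9.09 CPM. Sp5 rose by 3.31 ± 0.70 in Oct4+ against Pdgfra+ (adjusted p = 0.00207, edgeR), and its difference between DP and Pdgfra+ was 0.49 ± 0.78 (adjusted p = 0.73).

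Cdx1, a caudal homeobox factor that responds to WNT in the posterior embryo, had the largest contrast of the members. It was read at 0, 0.199 and 0 CPM in Pdgfra+, at 0.748, 1.89 and 0.261 CPM in DP and at 119, 5.62 and 154 CPM in Oct4+. No population overlapped another, but within Oct4+ replicate 2 lay far below the other libraries. DP replicate 3 and Pdgfra+ replicate 2 held 2 Cdx1 reads each, so that only the scaling to library size parted DP from Pdgfra+. Pdgfra+ held 2 Cdx1 reads in all and Oct4+ 2978, which is a ratio of 1289 with a 95% counting interval of 356 to 10645. That interval pools the reads of each population and leaves out the spread between libraries. By edgeR the Oct4+ against Pdgfra+ difference passed (log2 fold change 10.09 ± 1.53, adjusted p = 0.000287). DP against Oct4+ passed too (-6.54 ± 1.14, adjusted p = 0.000883), and DP against Pdgfra+ did not (3.55 ± 2.29, adjusted p = 0.355).

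T, the T-box factor Brachyury that marks the primitive streak and nascent mesoderm, was too low to be tested. It was at most 0.313 CPM in Pdgfra+ and 0.523 CPM in DP, and was read at 2.09, 12.2 and 0.887 CPM in Oct4+. Oct4+ replicate 2 was thus the library with the highest T and Lef1 and the lowest Cdx1 of its population. The summed level of 8 other markers of primitive streak and mesoderm was 29.8, 26.3 and 19.4 CPM in Oct4+ replicates 1 to 3, 25.6 to 37.9 CPM in DP and 11.2 to 16.4 CPM in Pdgfra+.

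Lgr5, a receptor for R-spondins that marks WNT-dependent adult stem cells, had the opposite order but few reads. It was read at 1.10, 0.996 and 3.44 CPM in Pdgfra+, 0.374, 0.354 and 0.131 CPM in DP and 0.155, 0.197 and 0.222 CPM in Oct4+, which are 52, 7 and 6 reads per population. The Pdgfra+ libraries lay above all others. Without the filter on low counts Lgr5 was lower in Oct4+ than in Pdgfra+ by 3.23 on the log2 scale (adjusted p = 0.000545, edgeR), and T was higher by 5.001 (adjusted p = 1.9e-05).

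**Figure D2:**
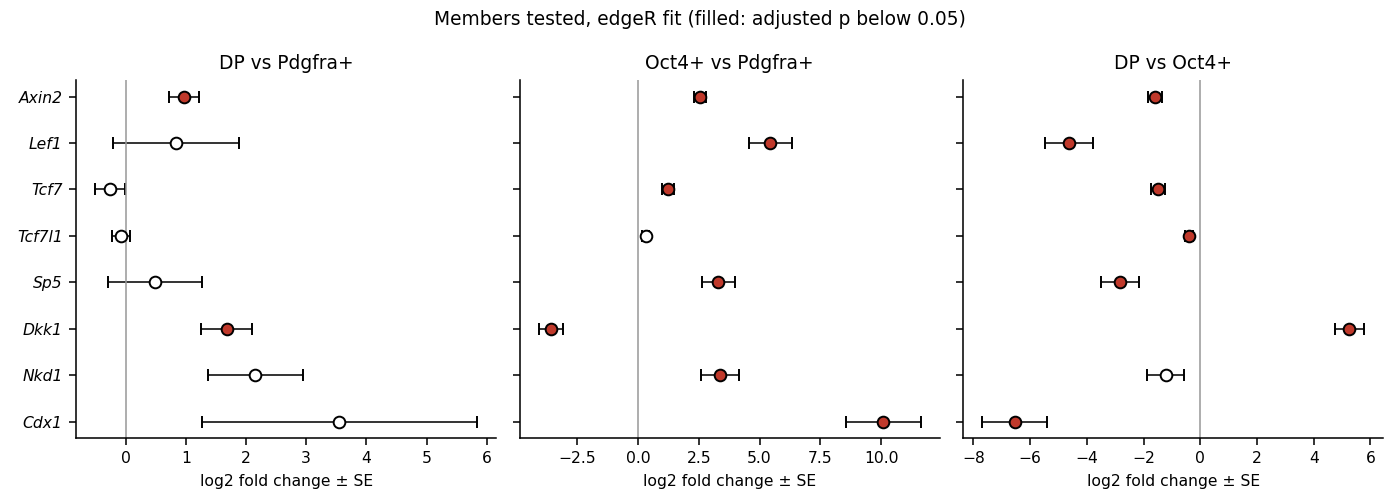
Log2 fold change of the 8 tested members in the 3 comparisons of sorted populations, with the SE as error bars, filled where the edgeR adjusted p is below 0.05. Points right of 0 are higher in the population named first. Dkk1 lies opposite to the other members against Oct4+, and Axin2 and Dkk1 are the filled points of DP against Pdgfra+.

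Levels of different genes were compared per kilobase of merged exons (RPKM), since longer transcripts give more reads. In Pdgfra+ the highest members were Tcf7l1 at 19.9 ± 0.99 RPKM (SD, n = 3), Dkk1 at 17.2 ± 0.93 and Tcf7 at 8.28 ± 2.52. In DP, Dkk1 stood at 55.3 ± 27.4 RPKM, Tcf7l1 at 18.9 ± 2.56 and Tcf7 at 6.95 ± 1.21. In Oct4+, Cdx1 averaged 53.0 ± 44.2 RPKM, a mean that its lowest library lies far below, Tcf7l1 24.8 ± 3.42, Tcf7 19.5 ± 3.96 and Axin2 9.57 ± 1.43. The remaining members were at or below 2.28 RPKM in all populations, apart from Axin2 in DP at 3.18 ± 0.42. Tcf7l1 was thus the most abundant TCF/LEF factor among the members in each population, although its margin over Tcf7 in Oct4+ was smaller than the sum of their SDs.

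For each tested member the genes closest in pattern were taken by Pearson's r of log2 CPM over the 9 libraries among 10517 or 10518 genes at 10 CPM or more in a population. The closest to Axin2 were Ell2 (r = 0.994) and Cdc42ep3 (0.994), and the closest to Dkk1 were Cubn (0.992), an endocytic receptor of visceral endoderm, and Clic5 (0.99). Cdx1 was closest to Slc6a16 (0.99) and Eif1 (0.988), and Tcf7 to Fzr1 (0.988) and Smad1 (0.986), a transducer of BMP signals. For Lef1 they were Tfb1m (0.977) and Pcmtd1 (0.971), for Tcf7l1 Plekhm1 (0.963) and Tmem50a (0.958), for Sp5 Zc3h15 (0.986) and 9130401M01Rik (0.976), and for Nkd1 Mael (0.98) and Mgll (0.974). These are descriptions over libraries that fall into 3 populations.

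The wider pathway was read from 93 further genes in 7 lists, of which 74 were tested. In Oct4+ against Pdgfra+ 52 passed, 26 higher and 26 lower, against the 63.2% of all genes given above, and their median log2 fold change was -0.04. In DP against Oct4+ 45 passed, 19 higher and 26 lower in DP, where 56.2% of all genes did. In DP against Pdgfra+ 12 passed, 8 higher and 4 lower, where 6.87% of all genes did. In the 6 libraries with the replicate block 21 of 60 passed, 8 higher and 13 lower, where 20.2% of all genes did. The counts of single lists below are read against the same shares in Oct4+ against Pdgfra+, 63.2% of all genes called, 31.8% higher and 31.5% lower. Among the 12 other response genes all 10 tested passed in Oct4+ against Pdgfra+, 8 of them higher (edgeR). Among them Tnfrsf19, a receptor of the TNF family, averaged 0.906 ± 0.501 CPM in Pdgfra+, 2.17 ± 0.78 in DP and 44.0 ± 8.45 in Oct4+. Bmp4, a BMP ligand, averaged 0.49 ± 0.571 CPM in Pdgfra+ and 22.8 ± 16.5 in Oct4+, and cyclin D1 (Ccnd1) 2.61 ± 1.22 and 51.1 ± 42.9.

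**Figure D3:**
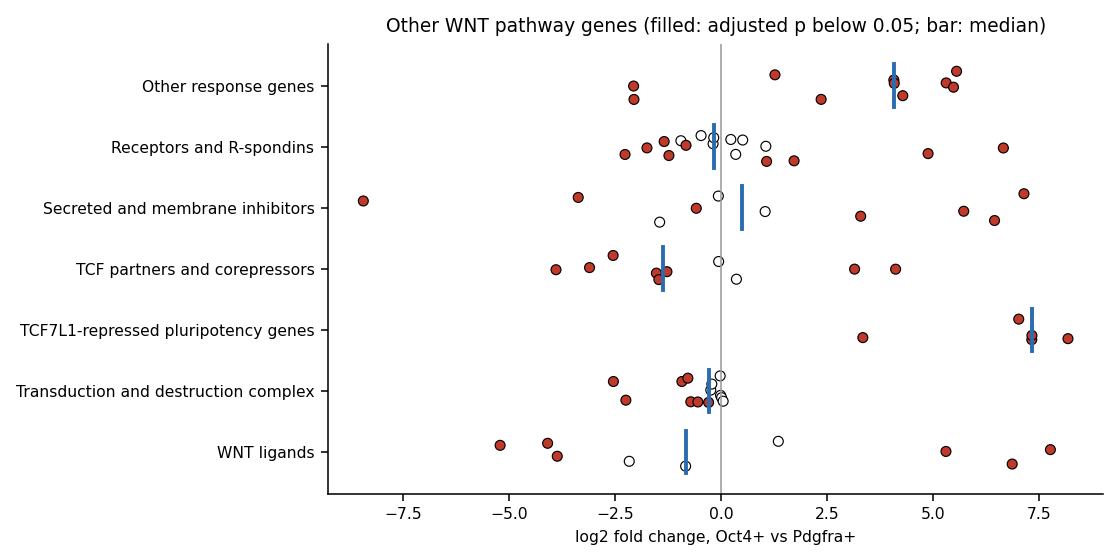
Log2 fold change of the 74 tested genes of the wider WNT pathway in Oct4+ against Pdgfra+, by list, filled where the edgeR adjusted p is below 0.05, with a bar at the median of each list. Response genes and pluripotency genes lie mostly right of 0, while members of the destruction complex that passed all lie left of it.

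Ligands and receptors passed in both directions, at a rate near that of all genes (63.2%). Of 18 WNT ligands 9 were tested, and 3 were higher and 3 lower in Oct4+ than in Pdgfra+, as were 4 and 5 of the 17 receptors and R-spondins tested. Wnt11 was at 103 ± 48.3 CPM in Pdgfra+, 87.5 ± 42.9 in DP and 2.79 ± 1.60 in Oct4+, whereas Wnt8a averaged 9.89 ± 5.07 CPM and Wnt5b 6.23 ± 3.16 CPM in Oct4+ and under 0.4 CPM elsewhere. Wnt6 was the only ligand that passed in DP against Pdgfra+, where 6.87% of all genes did. It stood at 11.2 ± 6.54 against 0.85 ± 0.22 CPM (log2 fold change 3.68 ± 0.56, adjusted p = 0.0125, edgeR), and its call was lost without Pdgfra+ replicate 3 (0.0568). Among receptors, the WNT receptor Fzd10 averaged 0.282 ± 0.2 CPM in Pdgfra+, 2.32 ± 1.27 in DP and 30.2 ± 8.54 in Oct4+, while the co-receptor Lrp5 ran the other way at 312 ± 24.5, 256 ± 31.4 and 64.5 ± 4.76 CPM. Fzd5 was lower in DP (76.1 ± 21.8 CPM) than in Pdgfra+ (227 ± 102 CPM, adjusted p = 0.0432), as was the WNT5A receptor Ror2 (6.29 ± 1.61 against 18.8 ± 8.2 CPM, adjusted p = 0.0436). The Fzd5 call was lost when any 1 of Pdgfra+ replicates 1 to 3 or DP replicates 2 and 3 was left out (adjusted p from 0.0619 to 0.153, edgeR). The Ror2 call was lost without Pdgfra+ replicate 2 or 3, any DP library or Oct4+ replicate 1 (0.0603 to 0.152) and with the replicate block over 9 libraries (0.0529).

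Secreted inhibitors other than Dkk1 also differed in direction, with 4 of 10 tested higher and 3 lower in Oct4+ than in Pdgfra+, against 31.8% and 31.5% of all genes. Frzb averaged 145 ± 90.2 CPM in Pdgfra+, 31.3 ± 22.4 in DP and 0.382 ± 0.236 in Oct4+. Sfrp2 and Notum, an enzyme that inactivates WNT ligands, were higher in Oct4+, at 32.4 ± 11.5 and 46.4 ± 27.9 CPM, than in Pdgfra+, at 0.217 ± 0.0237 and 0.873 ± 0.24 CPM. In DP against Pdgfra+ 2 of the 10 inhibitors tested rose, beside 4.62% of all genes. Sfrp1 was 1 of them, from 2.20 ± 0.43 to 6.64 ± 2.72 CPM (adjusted p = 0.0463, edgeR). That call held without Oct4+ replicate 2 and was lost without any of the other 8 libraries (0.0508 to 0.147) and with the replicate block over 9 libraries (0.0592).

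Inside the cell, 7 of 13 genes of signal transduction and the destruction complex passed in Oct4+ against Pdgfra+, and all 7 were lower in Oct4+, while of all genes 63.2% passed and 31.5% were lower. The tankyrase Tnks, which marks AXIN for degradation, fell from 513 ± 47.6 to 108 ± 16.3 CPM, Apc2 from 11.1 ± 1.001 to 1.88 ± 0.83 and Dvl3 from 65.8 ± 5.6 to 34.6 ± 0.95. Dvl1 was lower in DP (66.4 ± 4.79 CPM) than in Pdgfra+ (97.2 ± 2.37 CPM, adjusted p = 0.0322, edgeR), a call lost when any 1 of Pdgfra+ replicates 1 to 3 or DP replicates 2 and 3 was left out (0.0862 to 0.116). Of 10 partners and corepressors of TCF factors, 8 passed in Oct4+ against Pdgfra+, 2 higher and 6 lower, beside 31.8% and 31.5% of all genes. Tcf7l2, the TCF/LEF factor outside the member list, was at 105 ± 30.6 CPM in Pdgfra+, 49.7 ± 32.2 in DP and 7.03 ± 1.19 in Oct4+, and the beta-catenin partner Bcl9l fell from 181 ± 25.9 CPM in Pdgfra+ to 20.9 ± 2.03 in Oct4+. The corepressor Tle4 was higher in Oct4+ (180 ± 50.8 CPM) than in Pdgfra+ (20.3 ± 6.49 CPM), and Tle1 was lower in DP than in Pdgfra+ (77.0 ± 7.96 against 132 ± 19.9 CPM, adjusted p = 0.0263), a call lost without the same 5 libraries as that of Dvl1 (0.0510 to 0.106).

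The 5 pluripotency genes repressed by TCF7L1 all passed in Oct4+ against Pdgfra+ and all were higher, beside 63.2% of all genes called and 31.8% higher. In DP against Pdgfra+ 3 of the 5 rose, beside 4.62% of all genes. Esrrb stood at 3.61 ± 1.35 CPM in Pdgfra+, 50.1 ± 18.4 in DP and 586 ± 167 in Oct4+. Nanog stood at 1.79 ± 1.24, 16.1 ± 9.17 and 538 ± 179 CPM, and Klf2 at 1.54 ± 0.2, 7.27 ± 0.75 and 251 ± 62.5 CPM. In DP against Pdgfra+ the Nanog call was lost without Pdgfra+ replicate 3 (adjusted p = 0.0746, edgeR). Esrrb, Nanog and Klf2 are also among the 11 epiblast markers, so that this list is not separate from the sort.

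The single-cell libraries show in which cells of the culture the members were read. Of 6896 barcodes without and 7283 with 4OHT, 5255 and 6555 cells were used, with medians of 17557 and 12550 UMIs, and the libraries shared 21 barcode sequences. The cells were clustered without the members and without the wider WNT genes, and clusters were named from marker genes. Without 4OHT, 25.8% of cells (exact 95% interval 24.6% to 27.0%) were endoderm-like and 70.9% (69.7% to 72.1%) epiblast-like. With 4OHT 96.4% were endoderm-like and 0 of 6555 cells were epiblast-like (exact 95% interval 0% to 0.0563%). Pou5f1 was read at 14.1 CPM in endoderm-like cells without and 2.03 CPM with 4OHT, from 302 and 179 UMIs, and whether the counted 3′ end lies in the deleted part is not stated. With 1 library per condition there is no test, and intervals cover counting error only.

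**Figure D4:**
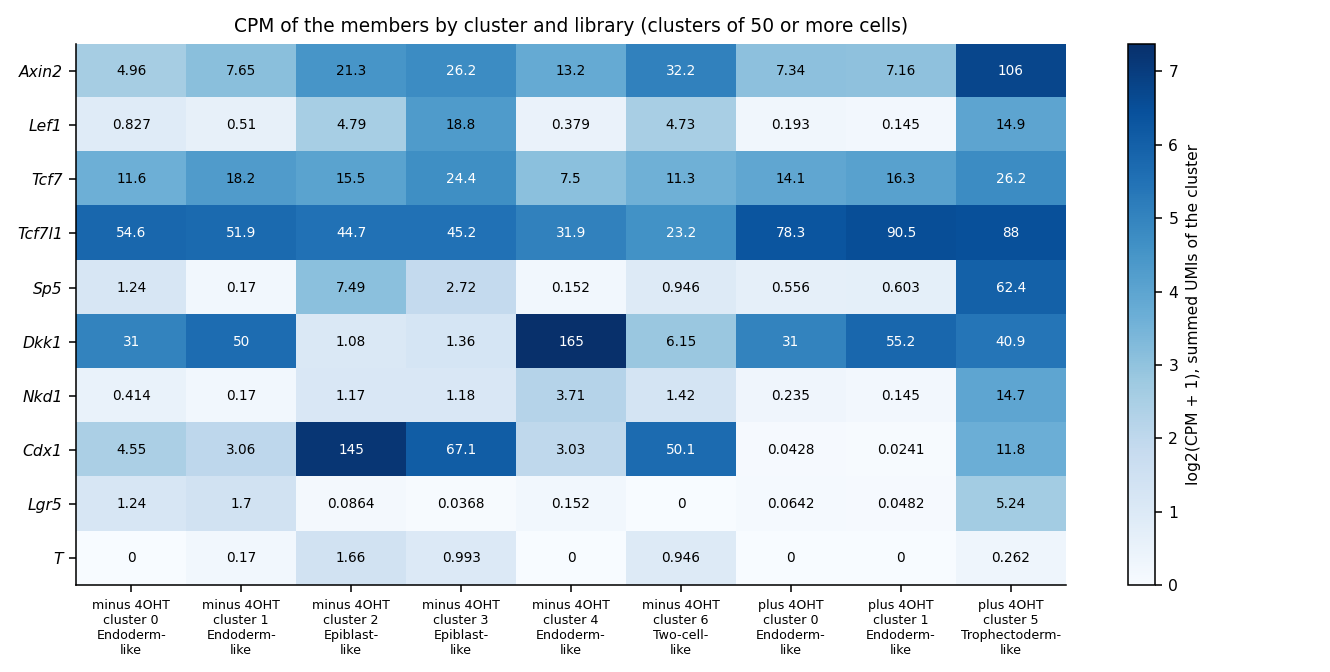
Level of each member in the clusters of 50 or more cells of each library, as CPM of the summed UMIs (numbers), with colour on the log2(CPM + 1) scale. Cdx1 is highest in the epiblast-like clusters, Dkk1 in endoderm-like cluster 4, and Axin2, Sp5, Nkd1 and Lgr5 in the trophectoderm-like cluster of the plus 4OHT library.

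Within the library without 4OHT the members divided between epiblast-like and endoderm-like cells. Cdx1 was read at 116 CPM (95% Poisson interval 114 to 119) in epiblast-like and 3.21 CPM (2.50 to 4.06) in endoderm-like cells, a ratio of 36.2 (28.6 to 46.5). Lef1 was at 9.96 against 0.465 CPM, a ratio of 21.4 (11.6 to 44.8), and Sp5 at 5.73 against 0.279 CPM, a ratio of 20.5 (9.35 to 56.2). These had the widest margins among the members higher in epiblast-like cells with over 5 UMIs in both. Axin2 was higher in epiblast-like cells by 2.15 times (1.87 to 2.48), at 23.1 against 10.7 CPM, and Tcf7 by 1.72 times (1.499 to 1.99). Tcf7l1 was nearly level, at 44.9 and 39.9 CPM. Dkk1 again ran the other way, at 1.18 CPM in epiblast-like and 118 CPM in endoderm-like cells. Nkd1 was also lower in epiblast-like cells, at 1.17 and 2.37 CPM, a ratio of 0.493 (0.345 to 0.712) from 86 and 51 UMIs. Over the whole class this is the reverse of the bulk libraries, where Nkd1 was higher in Oct4+ than in Pdgfra+. Of the 51 UMIs, 49 lay in the endoderm-like cluster 4 described below, at 3.71 CPM. The endoderm-like clusters 0 and 1 held 1 UMI each, at 0.414 (0.0105 to 2.31) and 0.17 CPM (0.00431 to 0.947), so that the reversal rests on cluster 4. Lgr5 was lower in epiblast-like cells as well, at 0.068 and 0.698 CPM from 5 and 15 UMIs. T had 104 UMIs in epiblast-like cells (1.42 CPM) and 1 UMI in endoderm-like cells. More than 2-fold higher levels in epiblast-like cells were seen for 12.9% of all 10382 genes at 5 CPM or more in either class, and more than 2-fold lower for 20.3%. When each cell was thinned to 5000 UMIs, Cdx1 was found in 37.3% of epiblast-like and 1.11% of endoderm-like cells. The same shares of Tcf7l1 were 19.2% (17.99% to 20.5%) and 18.7% (16.6% to 20.8%), whose intervals overlap. Unthinned, these shares were 71.5% and 3.17% for Cdx1, at median depths of 18792 and 14493.5 UMIs. The part of free RNA in the low share of Cdx1 in endoderm-like cells was not tested.

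The epiblast-like cells formed clusters 2 (2365 cells) and 3 (1361 cells), which differed most in Cdx1, Lef1 and Sp5 among the members at 5 CPM or more. Cdx1 was at 145 CPM in cluster 2 and 67.1 CPM in cluster 3, a ratio of 2.16 (2.05 to 2.28), and Lef1 at 4.79 and 18.8 CPM, a ratio of 0.256 (0.217 to 0.3). Sp5 was higher in cluster 2, at 7.49 against 2.72 CPM. Among all 9683 genes 1.70% were more than 2-fold higher and 4.19% more than 2-fold lower in cluster 2. Axin2 was close in both, at 21.3 and 26.2 CPM, and Tcf7l1 closer still at 44.7 and 45.2 CPM. T did not follow Lef1 here, with 1.66 CPM in cluster 2 and 0.993 CPM in cluster 3.

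Endoderm-like cells lay in clusters 0, 1 and 4, and these differed in the members. Cluster 4, led by Amn and Cubn of the visceral endoderm, was found only without 4OHT (708 and 0 cells). It held Dkk1 at 165 CPM (158 to 172), Axin2 at 13.2 CPM and Nkd1 at 3.71 CPM. Without 4OHT, cluster 0, led by Gkn1 and Tff1, held Dkk1 at 31.0 CPM and Axin2 at 4.96 CPM, and cluster 1, led by Car4, held them at 49.996 and 7.65 CPM. Tcf7 and Tcf7l1 ran the opposite way, at 7.50 and 31.9 CPM in cluster 4, 11.6 and 54.6 CPM in cluster 0 and 18.2 and 51.9 CPM in cluster 1. Pou5f1 was read at 20.6 CPM in cluster 4 and at 2.07 and 4.25 CPM in clusters 0 and 1.

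The libraries with and without 4OHT were compared within endoderm-like cells, 1356 without and 6316 with 4OHT. Over all these cells Tcf7l1 was 2.10 times as high with 4OHT (1.96 to 2.26), at 84.0 against 39.9 CPM, and Dkk1 0.358 times (0.341 to 0.377), at 42.4 against 118 CPM. These were the 2 members past 2-fold among the 4 at 5 CPM or more, where 14.7% of all 10119 genes were past it, 9.92% higher and 4.79% lower. Axin2 was at 7.26 against 10.7 CPM (0.675 times) and Tcf7 at 15.2 against 10.9 CPM (1.39 times). Different clusters held most of these cells in the libraries, cluster 4 without and clusters 0 and 1 with 4OHT. Leaving out cluster 4, none of the members at 5 CPM was past 2-fold: Dkk1 was at 0.953 and Axin2 at 1.06 times, and Tcf7l1 at 1.60 times. In the same way 337 instead of 1489 genes were past 2-fold.

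**Figure D5:**
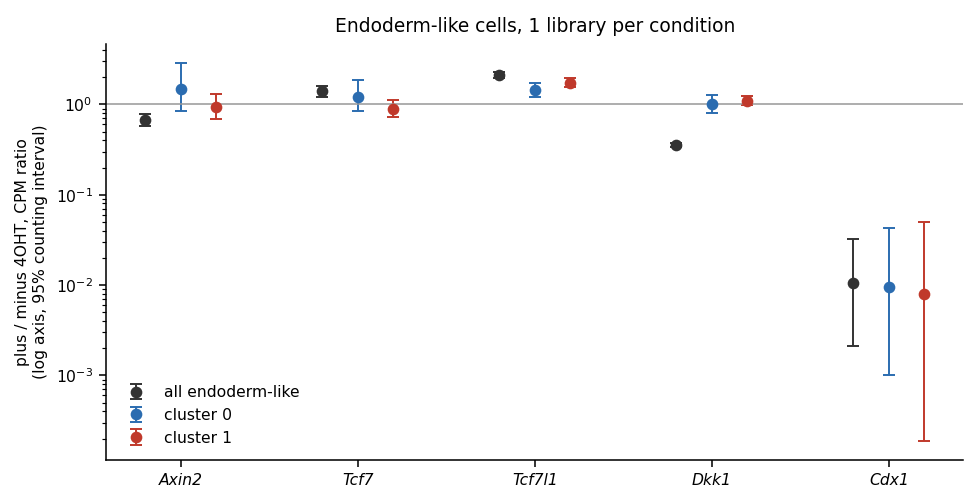
Ratio of CPM with to without 4OHT in endoderm-like cells for 5 members, on a log axis, with 95% exact counting intervals, for all endoderm-like cells and within clusters 0 and 1. The Dkk1 ratio of 0.358 over all cells becomes 1.0005 and 1.10 within the clusters, while Tcf7l1 stays above 1 and Cdx1 near 0.01.

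Within clusters the ratio of Dkk1 was 1.0005 (0.793 to 1.28) in cluster 0 and 1.10 (0.977 to 1.25) in cluster 1. That of Tcf7l1 was 1.43 (1.20 to 1.72) and 1.75 (1.55 to 1.97), so that its higher level with 4OHT held in both clusters, though short of 2-fold. Past 2-fold, 1.84% and 2.70% of all genes were higher and 1.96% and 1.04% lower, and the share at smaller ratios was not counted. The ratio of Axin2 was 1.478 (0.835 to 2.89) and 0.936 (0.683 to 1.31), and both intervals hold 1. Pou5f1 itself was at a ratio of 1.35 (0.566 to 4.24) in cluster 0, from 131 UMIs with and 5 without 4OHT. In cluster 1 the Pou5f1 ratio was 0.272 (0.165 to 0.461), so that a lower level with 4OHT was seen only there. Cdx1 was at 3.21 CPM without and 0.034 CPM with 4OHT, from 69 and 3 UMIs, and its ratio was near 0.01 in both clusters. With called doublets kept, which were marked only in the library without 4OHT, the ratio over all endoderm-like cells was 0.00416 instead of 0.0106. The library without 4OHT held 3726 epiblast-like cells with Cdx1 at 116 CPM and the other held none, and the part of free RNA in this difference was not tested. Lef1, Sp5, Nkd1, Lgr5 and T were at or below 2.37 CPM over all endoderm-like cells of each library, with Nkd1 at 3.71 CPM in cluster 4. Lgr5, from 10 or fewer UMIs per cluster and library, was lower with 4OHT in clusters 0 and 1, at ratios of 0.0517 (0.00693 to 0.386) and 0.0284 (0.00302 to 0.133).

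In the same endoderm-like cells the wider lists held 6 receptors more than 2-fold higher with 4OHT, out of 11 at 5 CPM or more, and none lower, beside 9.92% of all genes higher and 4.79% lower. The compared cells sit mostly in different clusters, and without cluster 4 no receptor of 11 was past 2-fold, beside 2.35% of all 9937 genes higher and 1.04% lower. The largest differences over all endoderm-like cells were those of Fzd2 (10.3 without and 33.2 CPM with 4OHT), the R-spondin receptor Lgr4 (24.5 and 75.5 CPM) and Fzd5 (28.2 and 74.2 CPM), and without cluster 4 these ratios were 1.33, 1.63 and 1.16. Wnt4 was at 7.35 without and 40.2 CPM with 4OHT and Wnt6 at 10.6 and 1.35 CPM. Tcf7l2 was at 98.3 and 340 CPM. Without cluster 4 the ratio was 3.44 for Wnt4 and 1.58 for Tcf7l2. Wnt6 was then below 5 CPM in both libraries, so that its difference was not counted there. Of 4 pluripotency genes at 5 CPM or more all were more than 2-fold lower with 4OHT, with Esrrb at 7.86 and 0.0227 CPM and Nanog at 5.91 and 0.0907 CPM, and without cluster 4 the 3 still at 5 CPM were more than 2-fold lower too. Summed epiblast markers in these cells were 2516 CPM without and 720 CPM with 4OHT. Esrrb, Nanog and Klf2 are among these markers, which were used to name clusters, and only the library without 4OHT held epiblast-like cells. The part of free RNA and of unmarked doublets in these differences was not tested.

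The highest levels of several members with 4OHT lay in 205 trophectoderm-like cells, 3.13% of that library, a cluster led by the placental genes Ascl2 and Esx1. In it 4 of 8 trophectoderm markers and 4 of 13 endoderm markers reached the level used for naming clusters. Cdx2, the only trophectoderm marker in the 10 leading genes, and Ascl2 are also on the list of other WNT response genes. The name of this cluster is thus not separate from the pathway. Axin2 was at 106 CPM (95.5 to 116) there against 7.26 CPM in endoderm-like cells of the same library, a ratio of 14.5 (12.8 to 16.5). Sp5 was at 62.4 against 0.578 CPM, a ratio of 108 (79.4 to 149). Lef1 was at 14.9 against 0.17 CPM and Nkd1 at 14.7 against 0.193 CPM. For Nkd1 this was not the highest class, since 29 feeder fibroblast-like cells of that library held it at 18.7 CPM (10.4 to 30.8), from 15 UMIs. Cdx1 was at 11.8 CPM, from 45 UMIs, and Lgr5 at 5.24 CPM, from 20 UMIs, the highest Lgr5 level of any class. More than 2-fold higher levels in trophectoderm-like cells were seen for 13.5% of 10628 genes and lower levels for 12.2%. Pou5f1, the gene that 4OHT deletes, was at 18.9 CPM in these cells against 2.03 CPM in endoderm-like cells of the same library, a ratio of 9.29 (6.97 to 12.3), and whether its deletion was complete in them was not tested. Tcf7l1 and Dkk1 were level between these classes, at 88.0 and 84.0 CPM and at 40.9 and 42.4 CPM. Sp5 was also in the 10 leading genes of this cluster, although it took no part in the clustering. Without 4OHT only 27 cells fell in the cluster, where Axin2 was at 11.9 CPM from 4 UMIs and Sp5 at 29.8 CPM from 10 UMIs.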

How the data were processed

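The members and gene lists were chosen with earlier results of these data known. For bulk RNA-seq the deposited values are raw counts per gene, from stranded single-end libraries, and 35 blank lines were left out. How reads were aligned and counted, with which annotation and strand setting, is not stated in the sources read. For single cells the authors deposited raw UMI counts made with Cell Ranger 6.1.2, per the file headers, and the submitters' processing notes name mm10. Reads of genes that overlap or share sequence may have been split by that counting.

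Bulk counts were tested in edgeR 4.0.16 (R 4.3.3) with filterByExpr, TMM scaling, the group as the only term and quasi-likelihood tests over all 9 libraries, at a Benjamini-Hochberg adjusted p below 0.05. The study's tool, DESeq2 1.42.0, was an alternative. On simulated data of DP against Pdgfra+ (14185 genes), 34.4% of genes changed by 1 log2 unit and 78% of those changed by 2 were called. The simulated levels started from means over all 9 libraries, without pairing. These shares thus need not hold for members that were rare in DP and Pdgfra+ and higher in Oct4+. CPM values used TMM-scaled totals. Library pairs of a group differed beyond sampling noise. Deviations from group means of libraries with the same replicate number correlated at 0.271, 0.477 and 0.321 for DP with Pdgfra+. By this check of the counts, not by the labels, the numbers were taken to pair that comparison. For Oct4+ they were between -0.0728 and 0.152. No column was without a sample.

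Cells needed 2000 genes, under 15% mitochondrial UMIs and totals within 3 median absolute deviations. Scrublet marked 202 of 5457 cells without and 0 of 6555 with 4OHT, so that it did not work in the latter. Cells were clustered with scanpy 1.11.5 (2000 variable genes, 20 components, Leiden resolution 0.2), and clusters named from marker lists. UMIs were summed per class, with exact 95% intervals.

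Named genes were the members, Pou5f1, Pdgfra, up to 3 genes per pathway list and comparison with the largest change among those that passed at 5 CPM or more, the 2 nearest genes per member, and markers. Merged exon lengths came from GENCODE M21 (GRCm38).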

Additional observations from a re-analysis of the deposited data

How the results depend on the processing

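The members' results in Oct4+ against Pdgfra+ kept their direction in every alternative, and the 7 calls held in all 9 fits without 1 library, where 7 or 8 members passed. The calls of DP against Pdgfra+ were the least stable. There 4 members passed without a filter on low counts, and 1 in the 6 libraries alone, with the replicate block over 9 or over 6 libraries, and with a minimum log2 fold change of 1.5. Without 1 library 0 to 2 members passed, 0 without any Pdgfra+ library, DP replicate 2 or DP replicate 3. All genes passing in that comparison numbered 1872 with DESeq2, 1892 without the filter, 2536 with the block over 6 libraries, 552 with the fold minimum and 61 (Pdgfra+ replicate 3) to 1382 (DP replicate 1) without 1 library (975 in the reported fit). Wider WNT genes passing numbered 20 with DESeq2, 24 without the filter, 21 with the block over 6 libraries and 2 to 13 without 1 library. With the fold minimum 4535 genes passed in Oct4+ against Pdgfra+ and 3933 in DP against Oct4+. The block changed no call of a member in Oct4+ against Pdgfra+, and in DP against Oct4+ that of Tcf7l1 over 6 libraries (adjusted p = 0.105).

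Small differences that were not called turned sign without 1 library in DP against Pdgfra+: Tcf7 (-0.398 to 0.0255), Lef1 (-0.0358 to 1.37), Tcf7l1 (-0.149 to 0.0305), Gsk3b (-0.108 to 0.0551), Tle4 (-0.17 to 0.30) and Wnt11 (-0.58 to 0.13). Fzd2 in DP against Oct4+ was -0.0601 with RLE, -0.0644 with DESeq2, -0.0782 at 5 CPM in 3 libraries and -0.54 to 0.91 without 1 library. In endoderm-like cells 1 member was past 2-fold with median-ratio size factors, which put Tcf7l1 at 1.96 times, and 0 members and 337 genes without cluster 4, an alternative chosen after seeing the data. With called doublets kept 3 members were past 2-fold. The core CTTTGAT alone was in the window of 1 member, Sp5. The causes were not tested. Totals of 8019631 to 11642571 reads limit what can be said of Lgr5, T and Nkd1.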
